A study of Mus musculus with 20 samples.

Results

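The 7 untreated bladder tumors of this series were examined for the genes that differed most between them and for the genes that varied together. They are 7 of 20 samples and were taken by their label, bladder tumor. All mice were FVB/N and shared a genotype: floxed alleles of Rb and of other tumor suppressor genes, and no p107, an Rb family member. Tumors had been started with an adenovirus coding for Cre recombinase, an enzyme that deletes floxed sequence, placed in the bladder, and these 7 received no drug. The vector was not restricted to a cell type by any promoter that the labels name, so the deleted cells are not defined by them. The labels number the tumors without saying that each came from another mouse. The tests below treat the 7 tumors as independent, which the labels do not establish. No array is labelled as a repeat of a tumor, so the spread between tumors may be partly technical. RNA from formalin-fixed, paraffin-embedded tissue (12 ng per sample) was read on a whole-transcript microarray. Values are log2 expression levels, so that a difference of 1 is a 2-fold difference, and levels are compared between tumors for the same gene only.

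The bladder is lined by the urothelium, an epithelium whose surface (luminal) cells make uroplakins, the proteins of its watertight plaques, and whose deep (basal) cells make keratin 5. Beneath it lie a layer of connective tissue with fibroblasts, vessels and immune cells, and the smooth muscle of the bladder wall. A piece of tumor cut for RNA extraction can hold any mixture of these. In such bulk samples fewer cells of a type and less RNA per cell cannot be told apart. Bladder tumors are commonly divided by their luminal or basal expression and by their content of stroma, immune cells and dividing cells.

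Levels of epithelial markers were read for the presence of urothelium in each tumor. The bladder lining itself makes uroplakins and keratin 5, so these levels cannot check that a sample is tumor. Krt5 ranged from 5.44 to 9.31 and Upk1b, a uroplakin, from 6.59 to 13.44, with both lowest in tumor 6 and highest in tumor 7. Cdh1, the epithelial cadherin, ranged from 5.94 in tumor 2 to 8.09 in tumor 7. Krt14, a further basal keratin, was between 5.38 and 6.24 in all tumors, close to the array medians of 5.23 to 5.47. In tumor 7 Krt5, Upk1b and Cdh1 were thus above the array median of 5.33 and Krt14, at 5.50, was close to it. In tumor 6, with an array median of 5.23, Upk1b (6.59) and Cdh1 (6.23) were above that median. Krt5, at 5.44, was near it and Upk3a, a further uroplakin, was below it at 4.55.

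Across 30142 genes named by a single symbol, the median SD over the 7 tumors was 0.27 and the 90th percentile was 0.58. An SD of at least 1, the threshold used here for a variable gene, was reached by 644 genes, which is 2.14% of all genes. Just inside the threshold were Vkorc1 (1.003), Cetn3 (1.01) and Rab10 (1.01), and just outside it Slitrk6 (0.999), Lamp2 (0.997) and P4hb (0.996). The variable genes were spread unevenly over the kinds of transcript. Of 17240 genes with an ordinary gene name, called named genes here, 190 passed (1.10%), of 7983 predicted or clone-named genes 253 (3.17%), and of 2599 small RNAs 109 (4.19%). The named genes include non-coding RNAs and 300 pseudogenes of other families, of which 17 passed. Pseudogenes of ribosomal proteins varied most often, with 72 of 206 (35.0%). None of the 1771 olfactory, vomeronasal and taste receptor genes passed, and their mean level, which is a measure of background in a bladder, was 5.26, 5.02, 4.91, 4.92, 4.93, 4.65 and 4.86 in tumors 1 to 7. It was therefore highest in tumor 1 and lowest in tumor 6.

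Tumors 3, 4 and 5 were near-mean arrays. Their deviations from the mean of all 20 arrays correlated with no other array above 0.103, against 0.44 to 0.56 as the highest such correlation for tumors 1, 2, 6 and 7. In 569 of the 644 variable genes all 3 near-mean values lay between the lowest and the highest of the other 4 tumors, which was so in 13807 of all 30142 genes. The median SD was 0.21 over the 3 near-mean tumors and 0.28 over the other 4. At least 1 was reached by 158 genes over the 3, of which 67 were small RNAs and 13 named genes, and by 1234 genes over the 4, which included 636 of the 644. At an SD of at least 1 the variation therefore lay mainly between tumors 1, 2, 6 and 7. For most of the variable genes the near-mean arrays added points close to the centre. They were not alike, since 1384, 1430 and 1540 genes differed by at least 1 between their pairs, against 1314 between tumors 1 and 2. These arrays had been named for lying near the mean, so their central place is partly built in. Why these arrays lay near the mean was not tested.

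**Figure D1:**
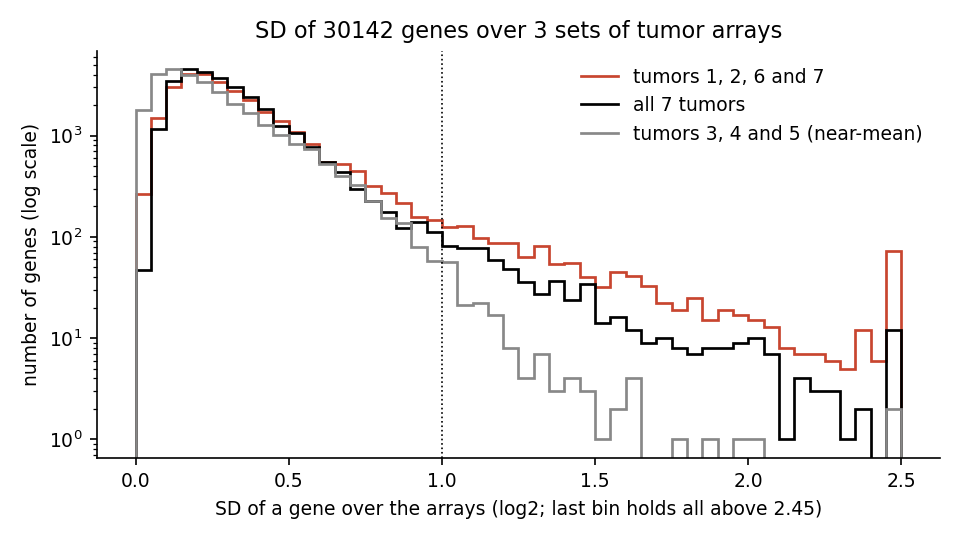
Number of genes (log scale) by the SD of their log2 level, over all 7 bladder tumors (black), over tumors 1, 2, 6 and 7 (red) and over the near-mean tumors 3, 4 and 5 (grey). The dotted line marks an SD of 1, which 644, 1234 and 158 genes reached.

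The tumors differed most from each other at the ends of a first axis. Between tumors 1 and 6, 5119 genes (17.0%) differed by at least 1, while the closest pair, tumors 2 and 4, had 1115 such genes (3.70%). The first principal component held 46.4% of the variance, with scores of 80.7 for tumor 1, 31.6 for tumor 2, −41.4 for tumor 7 and −66.6 for tumor 6, and −2.3 to −0.4 for the near-mean tumors. Its leading genes at the tumor 1 end were Gsdmc2 and Jchain among others, and at the tumor 6 end S100a8, B2m and pseudogenes of Rpl30. The background mean ran along the same axis, highest in tumor 1 and lowest in tumor 6, and its part in the component was not tested. The second component (17.1%) set tumor 7, at 53.5, against tumor 6, at −40.9, and tumor 2, at −22.0. It was led by Sptssb, Ivl and Upk1a at the tumor 7 end and by Thbs4, Mmp3, Ptgs2 and Postn at the tumor 6 end. Components 3 (11.7%) and 4 (10.5%) mainly separated the near-mean tumors from each other.

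**Figure D2:**
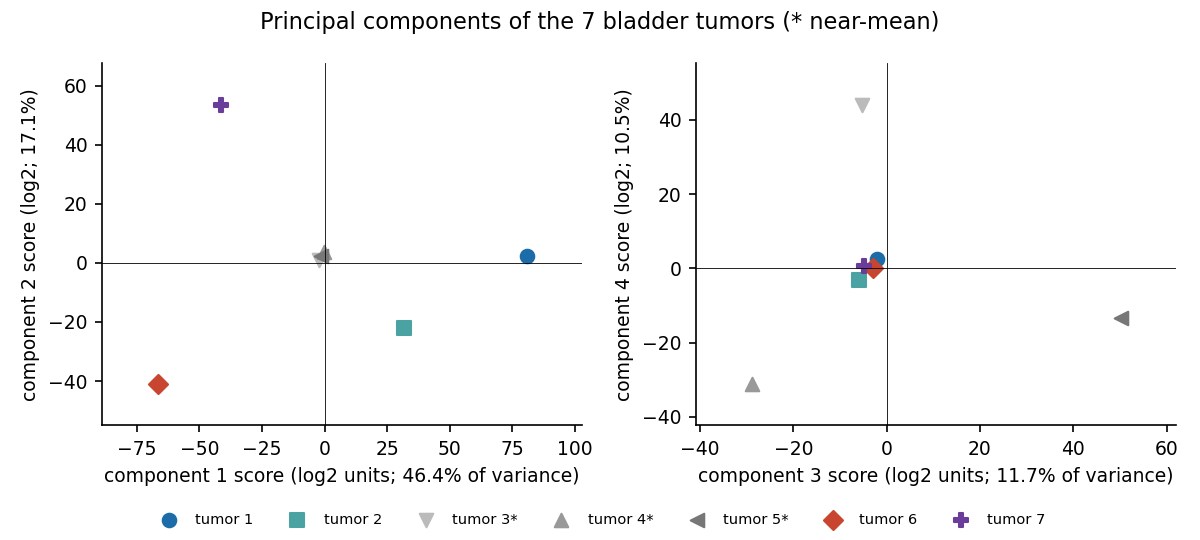
Scores of the 7 bladder tumors on principal components 1 to 4 of the gene-centred log2 values (log2 units, 1 symbol per tumor, near-mean arrays starred in the legend). Tumors 1, 2, 6 and 7 spread over components 1 and 2 with the near-mean tumors at the centre, and components 3 and 4 spread the near-mean tumors.

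Of the 644 variable genes, 90 (14.0%) had 1 tumor standing apart, with a gap to the nearest other tumor past Dixon's critical value for 7 samples, against 6.39% of all genes. The value farthest from the gene's median was the high value of tumor 7 in 195 of the 644, the high value of tumor 6 in 179, the low value of tumor 1 in 156 and its high value in 59. Among the 190 named genes with an SD of at least 1, the value farthest from the gene's median was the high value of tumor 7 in 86 (45.3%), the high value of tumor 6 in 71 (37.4%) and the low value of tumor 1 in 28 (14.7%). The remaining genes were spread over 5 other combinations of tumor and side, with 1 gene each.

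Tumor 7 held the highest levels of differentiated urothelial genes. Sptssb, a small subunit of serine palmitoyltransferase, the first enzyme of sphingolipid synthesis, had the highest SD of the named genes, 3.02. Its levels in tumors 1 to 7 were 9.39, 5.87, 8.26, 8.56, 8.53, 5.42 and 14.63. Upk1a, a uroplakin, was at 7.57, 5.84, 8.09, 8.01, 8.41, 5.37 and 13.93 in the same order (SD 2.80). For both genes tumor 7 was far above all others and tumors 2 and 6 were lowest. Tumor 1 lay above the near-mean tumors for Sptssb and below them for Upk1a. Upk3a, a uroplakin, ranged from 4.55 in tumor 6 to 12.21 in tumor 7 with a median of 7.20 (SD 2.50). Psca, a surface protein of urothelial and prostate epithelium, ranged from 4.95 in tumor 6 to 11.12 in tumor 7 with a median of 6.49 (SD 2.01). Of 17 measured luminal genes, 16 were highest in tumor 7 and 11 lowest in tumor 6 (13.8% and 25.1% of all genes), 8 had an SD of at least 1, and the median SD was 0.96 against 0.27 for all genes. The exception was the transcription factor Foxa1, which was low throughout, from 3.99 to 4.79. Gstm1, a glutathione transferase, ranged from 5.54 to 13.35, and Ly6d, a surface protein of stratified epithelia, from 5.00 to 11.67, again with the maximum in tumor 7.

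Some epithelial genes were highest in tumor 7 and second in tumor 1. Ivl, encoding involucrin of the cornified envelope, the protein shell of squamous epithelium, was at 9.78, 4.97, 7.53, 7.39, 7.95, 4.70 and 13.18 in tumors 1 to 7 (SD 2.90). Sprr2b, a small proline-rich protein of the same envelope, ranged from 3.99 in tumor 2 to 12.75 in tumor 7 (SD 2.72). The gasdermin genes Gsdmc2 and Gsdmc3 on chromosome 15 were high in both. Gsdmc2 reached 11.29 in tumor 1 and 11.64 in tumor 7, with 4.92 to 7.44 in the other 5. Gsdmc3 was at 9.37 in tumor 1 and 10.08 in tumor 7. In contrast, most of the 20 measured basal and squamous genes varied little. Their median SD was 0.27, that of all genes, and only Krt5 and Ivl had an SD of at least 1, with Sprr1a at 0.99. Other envelope genes were low in all tumors, with Sprr1b between 4.49 and 5.35 and Sprr3 between 3.91 and 5.10, and neither was highest in tumor 7. The 12 epithelial junction genes had a median SD of 0.34, with 7 highest in tumor 7 and 5 in tumor 1, and the highest SD among them was that of Cdh1, 0.77.

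Smooth muscle genes were also highest in tumor 7, in 17 of 17 measured. Acta2, the smooth muscle actin, was at 6.16, 6.79, 7.45, 7.93, 7.72, 5.94 and 12.16 in tumors 1 to 7 (SD 2.09). Myh11, the smooth muscle myosin heavy chain, was at 5.99, 5.53, 6.99, 6.96, 6.79, 5.03 and 11.32 (SD 2.07). Tumor 7 stood more than 3 log2 units above every other tumor in both genes, and the near-mean tumors lay above tumors 1, 2 and 6. Actg2, the enteric smooth muscle actin, reached 11.51 and Synpo2, a Z-disc and actin-binding protein, 10.40 in tumor 7. The lowest value was that of tumor 6 in 11 of the 17 genes, 10 had an SD of at least 1, and the median SD was 1.15. In 14 of the 17 the gap between tumor 7 and the next tumor passed Dixon's critical value, against 6.39% of all genes for any tumor. Smooth muscle and luminal genes thus peaked in the same tumor. They differed in tumor 1, where their mean deviation from the mean of the 7 tumors was −0.70 for smooth muscle and 0.07 for luminal genes.

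**Figure D3:**
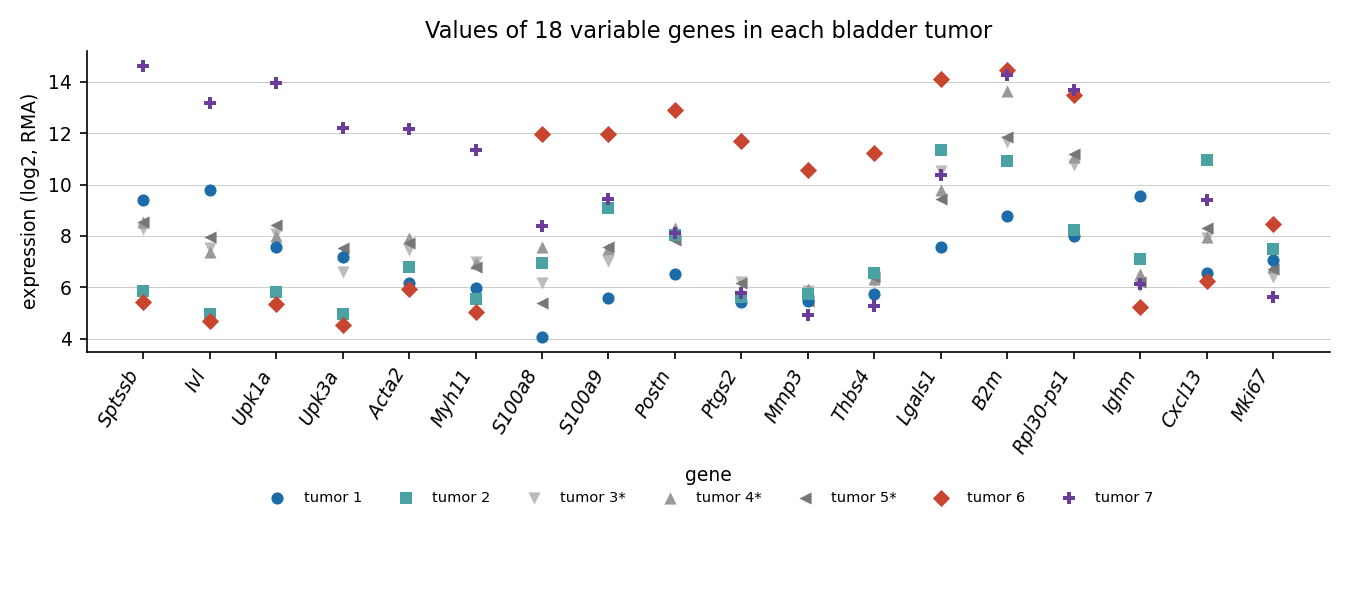
Log2 levels of 18 variable genes (horizontal axis) in each of the 7 bladder tumors, 1 symbol per tumor, with the near-mean tumors 3, 4 and 5 in grey. Tumor 7 is highest from Sptssb to Myh11, tumor 6 from S100a8 to B2m, and tumor 1 in Ighm.

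Promoter sequences are shown for Acta2 and Myl9, because smooth muscle genes moved together and are known targets of serum response factor, which binds the CArG box. Shown are the 250 bases before the RefSeq start site in assembly GRCm38.p6, 5′ to 3′ on the gene's strand, with capitals for matches to the CArG box (both strands are covered, since the motif reads the same on each) with at most 1 mismatch. Acta2 lies at chr19:34255374-34255623 on the minus strand, and Myl9, a myosin light chain, at chr2:156775214-156775463 on the plus strand.
Acta2: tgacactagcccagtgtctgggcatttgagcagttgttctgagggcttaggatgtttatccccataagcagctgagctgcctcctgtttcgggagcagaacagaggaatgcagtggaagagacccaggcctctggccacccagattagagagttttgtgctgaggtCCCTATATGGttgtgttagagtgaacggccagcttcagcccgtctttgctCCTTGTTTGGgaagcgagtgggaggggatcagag
Myl9: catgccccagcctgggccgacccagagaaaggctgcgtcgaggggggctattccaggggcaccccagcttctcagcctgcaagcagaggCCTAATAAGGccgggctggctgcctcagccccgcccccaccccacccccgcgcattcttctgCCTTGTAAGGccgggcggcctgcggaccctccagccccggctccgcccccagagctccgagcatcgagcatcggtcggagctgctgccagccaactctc
The boxes begin 84 and 34 bases before the start of Acta2, each with 1 mismatch, and 161 and 99 bases before that of Myl9, the first of them without a mismatch. Of the smooth muscle list, 14 genes had a promoter in the table, of which 1 held a perfect box (Myl9) and 5 a box with at most 1 mismatch (Acta2, Hspb6, Myl9, Pcp4 and Synm, 35.7%). Among Acta2 and the genes that limma found to vary with it, 29 had a promoter, of which 1 held a perfect box (3.45%) and 5 one with at most 1 mismatch (17.2%). Of all 27025 promoters, 439 (1.62%) held a perfect box and 2643 (9.78%) one with at most 1 mismatch. The mismatch was allowed after the result with the perfect box had been seen. A match describes letters in this window, and the absence of one says only that these letters are not there.

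Tumor 6 held the highest levels of matrix, inflammatory and stress genes. Postn, encoding periostin, a matrix protein of activated fibroblasts, was at 6.53, 8.03, 7.99, 8.29, 7.84, 12.91 and 8.12 in tumors 1 to 7 (SD 2.02). Ptgs2, the inducible prostaglandin synthase COX-2, was at 5.44, 5.62, 6.23, 5.84, 6.16, 11.68 and 5.79 (SD 2.22). Tumor 6 alone was high in both, and the other 6 tumors lay within 2 log2 units of each other. Mmp3, a matrix protease, was 10.58 in tumor 6 and 4.95 to 5.95 elsewhere. Thbs4, a matrix thrombospondin, was 11.21 in tumor 6 and 5.29 to 6.54 elsewhere, and Stc1, the hormone stanniocalcin, was 10.26 in tumor 6 and 4.48 to 6.18 elsewhere. Of 18 fibroblast and matrix genes, 16 were highest in tumor 6 and 11 lowest in tumor 1 (18.2% and 19.6% of all genes). Of the 18, 8 had an SD of at least 1, and the median SD was 0.77. Lgals1, a galectin of mesenchymal cells, ranged from 7.57 in tumor 1 to 14.09 in tumor 6, and Fn1, fibronectin, from 6.82 in tumor 1 to 11.84 in tumor 6. Of 8 regulators of epithelial-mesenchymal transition 6 were highest in tumor 6, among them Prrx1 (8.46, with 5.10 to 5.95 elsewhere) and Zeb1 (8.42, with 6.00 to 6.99 elsewhere). Of 13 secreted proteases and their inhibitor, 10 were highest in tumor 6, including Timp1 at 8.22 against 4.96 to 5.75.

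The alarmin genes S100a8 and S100a9, which encode both chains of calprotectin in neutrophils and inflamed epithelium, had a wider order. S100a9 was at 5.59, 9.10, 7.04, 7.50, 7.55, 11.97 and 9.45 in tumors 1 to 7 (SD 2.06), and S100a8 at 4.07, 6.94, 6.16, 7.57, 5.40, 11.96 and 8.40 (SD 2.53). Both were highest in tumor 6, second in tumor 7 and lowest in tumor 1. The neutrophil genes proper were less variable. Cxcr2, a chemokine receptor of neutrophils, was 7.28 in tumor 6 and 5.36 to 5.63 elsewhere, while granule genes had other orders. Ltf was 7.32 in tumor 2 and 5.33 to 5.86 elsewhere, Camp was highest in tumor 7 (6.45, with 5.80 to 6.03 elsewhere), and Elane (4.02 to 4.45) and Mpo (4.90 to 5.41) were near or below the array medians. Of 16 genes of the list, 10 were highest in tumor 6 (18.2% of all genes) and 2, the alarmins, had an SD of at least 1. Of 18 macrophage and dendritic cell genes, 10 were highest in tumor 6 and 10 lowest in tumor 1 (18.2% and 19.6% of all genes). Of the same 18, 3 were highest in tumor 2, 3 were highest in tumor 7 and 2 were lowest in tumor 6. Gpnmb was highest in tumor 7 (7.50) and lowest in tumor 6 (5.07), and C1qb was highest in tumor 2 (7.66). Lyz2, the lysozyme of myeloid cells, was 6.87 in tumor 1 and 8.60 to 10.63 elsewhere (SD 1.22). Tyrobp, a myeloid signalling adaptor, was 4.86 in tumor 1 and 8.71 in tumor 6 (SD 1.16).

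Cell cycle genes varied over a smaller range. Mki67, the proliferation marker, was at 7.06, 7.49, 6.39, 6.81, 6.71, 8.46 and 5.63 in tumors 1 to 7 (SD 0.89). Top2a, a topoisomerase of dividing cells, was at 6.25, 7.42, 6.46, 6.29, 6.32, 8.18 and 5.35 (SD 0.92). In both, tumor 6 was highest, tumor 2 second and tumor 7 lowest. Of 21 mitosis genes 16 were highest in tumor 6 and 18 lowest in tumor 7, and of 20 DNA replication genes likewise 16 and 18. Over all genes these shares were 18.2% and 11.1%. No gene had an SD of 1 in either list (median SD 0.42 and 0.35). Tumor 6 was also highest in 16 of 20 interferon response genes, 12 of 14 hypoxia and glycolysis genes and 11 of 12 genes of the unfolded protein response, again with no SD of at least 1. Among these Slc2a1, the glucose transporter GLUT1, was 7.66 in tumor 6 and 5.62 to 6.05 elsewhere. Pgk1, a glycolytic enzyme, was 8.68 in tumor 6 and 5.71 to 6.44 elsewhere, and Hspa5, a chaperone of the endoplasmic reticulum, 8.39 against 6.45 to 7.30. Of all 30142 genes, 5480 (18.2%) were highest in tumor 6 and 8692 (28.8%) in tumor 1.

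Tumor 1 held the highest levels of some immunoglobulin genes and the lowest of many ribosomal ones. Of 9 measured B and plasma cell genes 4 were highest in tumor 1, against 28.8% of all genes. Their mean deviation there was 0.70, against 0.33 for the olfactory, vomeronasal and taste receptor genes. The most variable of the 9 were Ighm and Jchain. Ighm, the IgM heavy chain, was at 9.54, 7.11, 6.06, 6.53, 6.20, 5.25 and 6.15 in tumors 1 to 7 (SD 1.38), and Jchain, which joins IgM and IgA chains, at 7.81, 6.73, 6.18, 6.02, 5.88, 5.41 and 6.75 (SD 0.78). The highest SD of all genes, 3.99, belonged to a kappa chain variable segment that was chosen after its values were seen. It was at 16.16 in tumor 1, 8.36 in tumor 2 and 4.32 to 7.04 in the other 5. In 31 genes, this one included, a tumor value exceeded 16, above the log2 range of usual scanner intensities, and the step that gave such values is not named in the sources. Of 18 immunoglobulin segments and constant genes with an SD of at least 1, this segment and Ighm included, 5 were highest in tumor 1, 2 in tumor 2 and 11 in tumor 7. B cell surface genes were low, with Cd79a at 5.15 to 5.71. B2m, the light chain of class I molecules, was 8.79 in tumor 1 and 10.91 to 14.46 elsewhere (SD 2.05), whereas the heavy chains H2-K1 and H2-D1 had SDs of 0.48 and 0.52. Ribosomal protein pseudogenes were lowest in tumor 1 in 127 of 206 and highest in tumor 7 in 130 (19.6% and 13.8% of all genes), with Rpl30-ps1 at 7.98, 8.25, 10.78, 11.07, 11.18, 13.49 and 13.68 (SD 2.24). Ribosomal protein genes did the same in part, with 24 of 38 lowest in tumor 1 and 19 highest in tumor 7. Pseudogenes of a family share sequence with their parent genes, so their signal cannot be assigned to one locus.

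Tumor 2 stood out in few genes. Cxcl13, a chemokine that attracts B cells, was at 6.57, 10.95, 7.92, 7.97, 8.31, 6.25 and 9.41 in tumors 1 to 7 (SD 1.61). Pigr, the epithelial transporter of IgA, was 7.42 in tumor 2 and 5.02 to 5.54 elsewhere, and Ctla2a, a protease inhibitor, 9.65 against 6.86 to 7.88. Mmp7, an epithelial matrix protease, was 7.04 in tumor 2 and 5.99 in tumor 1, with 4.61 to 5.16 elsewhere. T and NK cell genes varied little, with a median SD of 0.21 over 14 genes and a highest SD of 0.45, for the chemokine Ccl5. Their mean level was 5.18 to 5.40, close to the array medians of 5.23 to 5.47. Their low spread therefore says little about the content of these cells. Endothelial genes were the most even of the tissue lists, with a median SD of 0.14 over 12 genes.

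The near-mean tumors differed among themselves in other transcripts. The mitochondrially encoded COX1 was 12.99 in tumor 3 and 16.71 in tumor 4, and ND2 was 14.90 in tumor 5 against 13.16 and 12.53 in tumors 3 and 4. Snord42a, a small nucleolar RNA named after its values were seen, was 13.15 in tumor 3, 22.02 in tumor 4 and 13.80 in tumor 5, while tumors 1, 2, 6 and 7 lay between 16.31 and 16.50. Among the tissue genes, S100a8 was at 6.16, 7.57 and 5.40 and B2m at 11.63, 13.64 and 11.86 in tumors 3, 4 and 5, while Krt5 was between 6.83 and 6.97 and Col3a1 between 7.02 and 7.10.

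**Figure D4:**
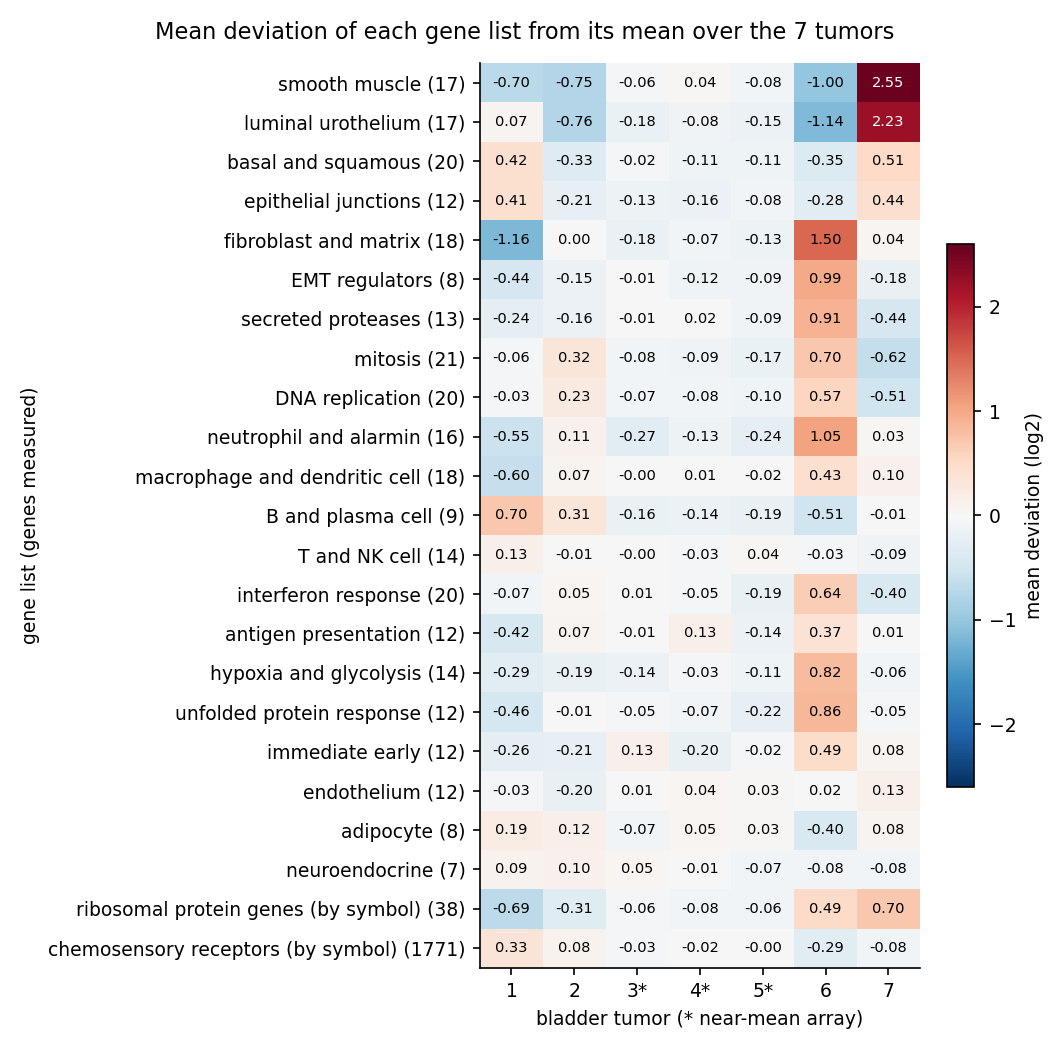
Mean deviation (log2) of each gene list from its own mean over the 7 bladder tumors, with the number of genes measured in brackets and near-mean tumors starred. Tumor 7 is highest in smooth muscle (2.55) and luminal urothelium (2.23), and tumor 6 in fibroblast and matrix genes. Tumor 1 is highest in B and plasma cell genes (0.70, mainly from Ighm and Jchain) and also in chemosensory receptors (0.33), the background measure.

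To ask which genes varied together, limma fitted every gene against the level of 1 marker gene over the 7 tumors, with p-values adjusted by the Benjamini-Hochberg method over 30141 genes. Slopes are log2 units per log2 unit of the marker. Genes with an adjusted p below 0.05 counted as called. With Acta2, 38 genes were called, 0.126% of those tested, all higher where Acta2 was higher. They included 11 of 16 smooth muscle genes. Myl9 had a slope of 0.84 ± 0.05 (SE; limma adjusted p = 0.00448), Tns1, the focal adhesion protein tensin, 0.59 ± 0.04 (limma adjusted p = 0.00448) and Myh11 0.98 ± 0.07 (limma adjusted p = 0.00448). The calls also held P2rx1, an ATP receptor of bladder muscle, and the uroplakin genes Upk1a and Upk2, but not Upk3a (slope 1.11 ± 0.16, limma adjusted p = 0.0667). Without tumor 7 no gene was called with Acta2, without tumor 6 there were 157 and without tumor 1 there were 77. Without tumor 2, 4 or 5 the count was 17, 21 or 16.

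With Upk3a, 58 genes were called (0.192%), again all in the same direction. The smallest p-values belonged to Fmo5, a flavin monooxygenase (slope 0.68 ± 0.03, limma adjusted p = 0.00118), Sptssb (1.19 ± 0.06, limma adjusted p = 0.00118) and Upk1a (1.11 ± 0.06, limma adjusted p = 0.00118). Of 16 other luminal genes 3 were called, Upk1a, Upk2 and Psca, and of 17 smooth muscle genes 11. Snx31, a sorting nexin of urothelium, and Plet1, an epithelial surface protein, were also called. The lists for Acta2 and Upk3a shared 20 genes, 52.6% of the first and 34.5% of the second. Without tumor 7 no gene was called with Upk3a either, and without tumor 2, 3, 4, 5 or 6 the count was 9, 22, 13, 37 or 12.

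With Krt5, 11 genes were called (0.0365%). The smallest p-value was that of Ivl, with a slope of 2.13 ± 0.10 (limma adjusted p = 0.00129). Adamdec1, a metalloprotease, had a slope of 0.97 ± 0.07 (limma adjusted p = 0.0108) and Aqp3, a water and glycerol channel of epithelia, of 1.04 ± 0.10 (limma adjusted p = 0.0376). The ceramide synthase gene Cers3, Sptssb, Gsdmc2, Gsdmc3, Mal and Cxcl14 were among the others. Of the 11, 8 were shared with the Upk3a list (72.7% of the Krt5 list, 13.8% of the Upk3a list) and 0 with the Acta2 list. Leaving out tumor 2, 4, 6 or 7 left 1 gene called with Krt5. Without tumor 3 there were 3, without tumor 5 there were 2 and without tumor 1 there were 85.

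With Col3a1, a fibrillar collagen of fibroblasts, 1 gene was called (0.00332%), Col1a1, a collagen of the same cells, with a slope of 1.51 ± 0.09 (limma adjusted p = 0.011). Col1a1 was at 7.15, 8.81, 7.42, 7.63, 7.57, 9.77 and 6.89 in tumors 1 to 7, and Col3a1 at 6.70, 7.90, 7.02, 7.10, 7.05, 8.43 and 6.55. Tumors 6 and 2 were highest in both, and tumor 7 was lowest with tumor 1 next, whereas Postn and Fn1 were lowest in tumor 1. Col1a2, the partner chain of Col1a1, was lowest in tumor 1 too (6.00, with 6.08 in tumor 7). It had a slope of 1.19 ± 0.11 and did not pass (limma adjusted p = 0.0632). Leaving out any tumor other than tumor 2 gave 0 genes, and without tumor 2 there were 11.

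With S100a9, 2 genes were called (0.00664%): Osmr, a receptor chain of the cytokine oncostatin M (slope 0.45 ± 0.04, limma adjusted p = 0.0372), and the predicted gene Gm16470 (0.58 ± 0.05, limma adjusted p = 0.0372). Osmr ranged from 5.34 in tumor 1 to 8.45 in tumor 6. S100a8, the partner of S100a9, had a slope of 1.15 ± 0.15 and did not pass (limma adjusted p = 0.104). Leaving out any tumor but tumor 2 gave 0 genes, and without tumor 2 there were 13.

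With Mki67, limma called 0 genes (0%). An unadjusted limma p under 0.05, which about 1 in 20 unrelated genes would reach, was found in 1824 of 30141 genes. With the other fitted markers this count ran from 1620 (Upk3a) to 4978 (S100a9). All 20 other mitosis genes and all 20 replication genes had positive slopes, with median correlations of 0.87 and 0.88 against −0.03 over all genes, as a description over 7 arrays. The closest by p were Upk1b and Bmp5, which were lower where Mki67 was higher, and Prc1, Top2a and Dnmt1, which were higher, each at a limma adjusted p of 0.242.

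**Figure D5:**
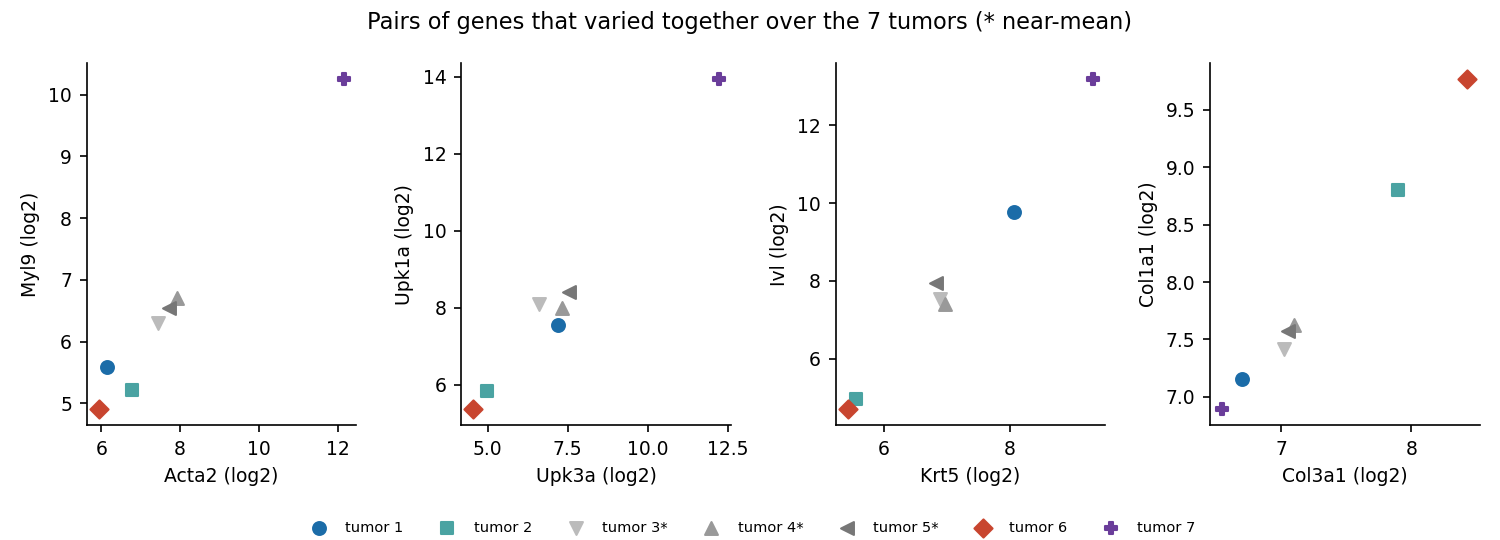
Log2 levels of 4 pairs of genes in the 7 bladder tumors (1 symbol per tumor, near-mean tumors in grey and starred in the legend): Acta2 and Myl9, Upk3a and Upk1a, Krt5 and Ivl, and Col3a1 and Col1a1. In the first 3 panels tumor 7 is at the upper right and tumor 6 at the lower left, and in the last tumor 6 is highest and tumor 7 lowest.

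The 12 marker genes of tissues and responses were also compared pair by pair. Exact two-sided permutation tests over all 5040 orders of the 7 tumors gave 0 of 66 pairs past an adjusted p of 0.05 (lowest 0.108) and 17 with a raw p under 0.05. By Spearman's rho 8 pairs had a raw p under 0.05 and 0 passed. Krt5 and Col3a1 ran in opposite directions with r = −0.90 (exact permutation p = 0.00437, adjusted 0.108) and rho = −0.89 (exact permutation p = 0.0123, adjusted 0.314). Without tumors 6 and 7, the 2 farthest from the median of Krt5, r was −0.96. Among the tumors left, the near-mean ones lay close together (Krt5 6.83 to 6.97, Col3a1 7.02 to 7.10). This r therefore rested mainly on tumors 1 and 2 and says little about the relation without the extremes. S100a9 and Lyz2 had r = 0.89 (exact permutation p = 0.0101, adjusted 0.111) and rho = 0.96 (exact permutation p = 0.00278, adjusted 0.183). Without tumors 1 and 6 their r was 0.82, over the near-mean tumors and tumors 2 and 7. Acta2 and Upk3a had r = 0.93 (exact permutation p = 0.0143, adjusted 0.133) and rho = 0.86 (exact permutation p = 0.0238, adjusted 0.314). Without tumors 6 and 7 their r was 0.35, so that relation rested on those tumors. Lyz2 and Ighm had r = −0.89 (exact permutation p = 0.0161, adjusted 0.133) and rho = −0.64 (exact permutation p = 0.139, adjusted 0.458), and r was −0.03 without tumors 1 and 6.

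For 40 genes with several rows, at least 1 of them with an SD of at least 1, the rows served as a check on single probe sets. Over all 40 the median correlation between rows was 0.75, and in 17 the lowest was above 0.8. Among the 17 that were named genes or ribosomal protein pseudogenes, the median was 0.89, and in 11 the lowest was above 0.8. The 4 rows of Hspa8, a heat shock cognate chaperone, correlated at 0.95 or more, with SDs of 1.75 to 1.85. Rows of Atp5l, an ATP synthase subunit, disagreed, with a lowest correlation of −0.90. The 2 rows of Cbl, a ubiquitin ligase, had SDs of 0.43 and 2.002, so its size of variation depended on the row.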

How the data were processed

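Whole-transcript arrays of 20 mouse samples were hybridised with biotin-labelled DNA made from 12 ng RNA, per the labels' protocols. The deposited log2 values were made with RMA, which the submitters' processing notes name beside Affymetrix Expression Console. Their versions and settings are not stated in the sources. RMA includes quantile normalization, which is meant to take out array-wide shifts. Array medians over the genes used here still ran from 5.23 to 5.47. Of 65956 rows, 30604 had 1 gene symbol, giving 30142 genes; where a gene had more than 1 row (355 genes), its brightest row on average was used. Rows matching a gene ID (22818) were checked for newer symbols, which changed 827. In 31 genes a tumor value exceeded 16.

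SDs and principal components were computed over the 7 tumors (Python 3.11.15, numpy 2.4.6). Covariation was fitted with limma 3.58.1 (R 4.3.3, lmFit and eBayes), with the marker's level as the covariate, and marker pairs were tested by exact permutation. Igkc has no row among the genes used, so Ighm stood for it. The number of arrays limits the precision. The fits were also run on simulated data with known slopes. Genes with a slope of 1 in either direction were called in 98% with Acta2, 60% with Mki67 and 43% with Col3a1. With a slope of 0.5 the shares were 73%, 18% and 1%. Few calls with Mki67 or Col3a1 therefore say little about how many genes vary with them. Members, gene lists and markers were chosen with earlier results of these data known, as was the naming of tumors 3, 4 and 5 as near-mean arrays. Named genes were the 10 highest SDs outside predicted, small RNA, receptor and segment genes, the 12 markers, the 3 highest SDs of each list, the genes most with and against each fitted marker, the 5 extremes on each side of each tumor, Xist and Y-linked genes, and Rb1, Rbl1, Ehmt2 and Dnmt1. Other genes of the lists are named where a count needed examples, and these were chosen after their values were seen. Alternatives tried were leaving out the near-mean arrays or each tumor, further quantile normalization, centring on medians, dropping genes with a mean under 5, averaging rows, other measures of spread, Spearman's rho and a trended robust prior. Those added later were the receptor mean as a second covariate, leaving out rows over 16, and named genes only.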

Additional observations from a re-analysis of the deposited data

Results flagged for a closer look

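For 41 of the 167 named genes, 1 tumor stood so far from the other 6 that its gap to the nearest of them, as a share of the gene's whole range, passed Dixon's critical value for 7 samples. Chance passes about 1 in 20 such groups, and 6.39% of all 30142 genes passed. Since many of these genes were named for their spread or extremes, the count is a description. The share of the range is given in brackets. Tumor 7 was high in 17 of the genes. These were the smooth muscle and actin-linked genes Acta2 (0.68), Myh11 (0.688), Actg2 (0.687), Tns1 (0.654), Myl9 (0.663), Cnn1 (0.709), Pgm5 (0.637) and Synpo2 (0.639), the urothelial and epithelial genes Sptssb (0.569), Upk1a (0.645), Upk3a (0.611), Ly6d (0.606), Psca (0.693), Adh1 (0.579) and Plet1 (0.705), and 2 genes of other tissues, Fabp4 (0.646) and Acta1 (0.648). Fabp4 marks adipocytes and Acta1 skeletal muscle, of whose lists 1 of 8 and 5 of 10 genes passed for any tumor. Besides Acta1, the skeletal muscle gene Ckm was high in tumor 7 (6.50, with 5.33 to 5.74 elsewhere).

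Tumor 6 was high in 21 of the genes. Matrix, mesenchymal and cartilage-linked genes were Postn (0.724), Prrx1 (0.745), Zeb1 (0.592), Mmp3 (0.822), Timp1 (0.757), Thbs4 (0.788), Fstl1 (0.59) and Sox9 (0.8). Inflammatory, secreted-factor and immediate early genes were Il1b (0.664), Tyrobp (0.575), Ccl5 (0.602), Ptgs2 (0.873), Stc1 (0.707) and Dusp1 (0.598). Hypoxia and glycolysis genes were Slc2a1 (0.79), Pgk1 (0.755) and P4ha1 (0.645), cell cycle genes Plk1 (0.64) and Pcna (0.577), and genes of the skeletal muscle and nerve lists Tnnt3 (0.648) and Gap43 (0.712). Tumor 2 was high in Pigr (0.782) and Ctla2a (0.635), and tumor 3 was low in the pseudogene Rpl17-ps9 (0.581).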

How the results depend on the processing

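No paired analysis was possible because only 1 group was studied and tumor numbers pair nothing. The count of 644 genes at an SD of at least 1 stayed within 1.5 times under quantile normalization, centring, dropping dim genes, averaging rows, the scaled median absolute deviation, a range of at least 3 and leaving out rows over 16. The genes themselves changed more: 385 of the 644 were among the 485 after quantile normalization once more, and 384 were among the 601 by the scaled median absolute deviation. It was 1234 without the near-mean arrays, 1809 by a range of at least 2 and 190 over named genes only. Leaving out 1 tumor gave 493 to 792 genes.

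Counts of covarying genes depended on the arrays and the scaling. Without the near-mean arrays, which leaves 4 arrays, limma called 0 genes with Acta2, Upk3a, Krt5, S100a9 and Col3a1. After quantile normalization once more the counts were 5 (Acta2), 11 (Upk3a), 5 (Krt5), 0 (S100a9) and 0 (Col3a1). Centring on medians gave 6 with Krt5 and 4 with Col3a1, and a trended robust prior 7 with Krt5, 0 with S100a9 and 0 with Col3a1. With the chemosensory receptor mean as a second covariate, an alternative chosen after seeing the data, the counts were 107, 146, 51, 0 and 0 for Acta2, Upk3a, Krt5, S100a9 and Col3a1. Leaving out each tumor in turn gave 0 to 157 genes with Acta2, 0 to 86 with Upk3a, 1 to 85 with Krt5, 0 to 13 with S100a9 and 0 to 11 with Col3a1. Mki67 gave 0 genes and the marker pairs 0 under every alternative run. With 6 arrays the smallest exact permutation p is 0.00139, which for 1 pair alone adjusts to 0.0917 over 66 pairs, so the pair counts without 1 tumor say little about stability. The cause of these changes was not tested, except that fewer arrays leave fewer degrees of freedom. SDs of the 167 named genes changed by over 1.5 times in 41 genes without tumor 6 and in 26 without tumor 7, all lower, in 6 without the near-mean arrays and in 0 to 5 under each other setting.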

Other observations

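Levels of G9a, Dnmt1, Rb1 and p107 genes were as follows in the untreated tumors. Ehmt2, which encodes the histone methyltransferase G9a, was between 6.58 and 6.96 (SD 0.12), and Ehmt1, its partner GLP, between 6.23 and 6.64 (SD 0.15). Dnmt1, the maintenance DNA methyltransferase, ranged more widely, at 7.43, 7.89, 7.29, 7.22, 7.44, 8.47 and 6.75 in tumors 1 to 7 (SD 0.55), with tumor 6 highest and tumor 7 lowest, the order of Mki67 at both ends. Rb1 was between 5.55 and 6.48 (SD 0.33) and Rbl1, the gene of p107, between 6.15 and 7.09 (SD 0.29). Signal from a floxed gene need not come from the deleted part, so the Rb1 levels check no deletion. Rbl1 was above the array medians of 5.23 to 5.47 in mice described as having no p107. Which part of the gene gave this signal was not tested, so the Rbl1 levels do not check its loss either.

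In the lists for other organs, no gene of the liver, lung, male accessory gland, cartilage and bone, nerve, neuroendocrine, skeletal muscle or adipocyte lists had an SD of at least 1. The widest was Trf, transferrin of the liver list, at 7.13, 9.52, 8.62, 8.60, 8.67, 7.05 and 9.14 in tumors 1 to 7 (SD 0.95), and the 7 liver genes had a median SD of 0.46 against 0.27 for all genes. Of 10 skeletal muscle genes 7 were highest in tumor 6, and 5 had a tumor standing apart past Dixon's critical value. Acta1, the skeletal muscle actin, was 8.13 in tumor 7 and 5.70 to 6.55 elsewhere (SD 0.83). Fabp4, a fatty acid carrier of adipocytes and capillaries, was 10.04 in tumor 7 and 7.96 to 8.70 elsewhere. Xist, the RNA of the inactive X chromosome, was 5.85 to 6.09 in the near-mean tumors and 4.52 to 4.89 in the other 4. The Y-linked genes Uty, Eif2s3y and Kdm5d were between 4.90 and 6.52 and, like Xist, were lowest in tumor 6.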
